A study of Mus musculus with 32 samples.

Results

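The genes *Slc15a5*, *B230312C02Rik*, *Map2k6* and *Rps6ka2* form a set selected on measured values: their RNA was much lower in *Mtm1* knockout (KO) than in wild-type (WT) muscle at postnatal day (P)35. They are 4 of the 54838 genes in the deposited table, of which 32355 had at least 1 count. The rule gave no numerical cut-off. Because P35 libraries chose the genes, every P35 value of these genes is given as a description without a test, and the tests come from P1, P14 and P21. RNAseq was done on skeletal muscle of 32 mice, named as the tibialis anterior (TA) by the study's methods and figures, with n=4 WT and n=4 KO mice per age, the ages being P1, P14, P21 and P35. KO mice carried a constitutive targeted deletion in exon 4 of *Mtm1*, an X-linked gene for a phosphoinositide phosphatase, and WT mice were littermates without it. The line was made on the 129S2PAS background and all mice were C57BL6/J. The samples were whole muscle, so fewer cells of a type and less RNA per cell cannot be told apart.

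*Map2k6* encodes the kinase MKK6, which phosphorylates and activates the p38 MAP kinases in response to stress and cytokine signals, and p38 acts in muscle differentiation and in the response of muscle to exercise. *Rps6ka2* encodes RSK3, a ribosomal S6 kinase that acts below the ERK MAP kinases. *Slc15a5* belongs by sequence to the SLC15 family of proton-coupled peptide transporters, although its own substrate is poorly known. *B230312C02Rik* is annotated as a long intergenic noncoding RNA with no assigned function.

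In GRCm38 coordinates of the GENCODE M21 annotation, *Slc15a5* (ENSMUSG00000044378) lies at chr6:137983586-138079916 on the minus strand, with 3088 exonic bases. *B230312C02Rik* (ENSMUSG00000084843) lies at chr2:180370491-180385885 on the minus strand, with 1703 exonic bases in 1 annotated transcript. *Map2k6* (ENSMUSG00000020623) lies at chr11:110399122-110525522 on the plus strand and *Rps6ka2* (ENSMUSG00000023809) at chr17:7170115-7303315 on the plus strand. Their exons cover 3444 and 9978 bases, and each has 5 annotated transcripts. None of the 4 genes overlapped another annotated gene. Counts were per gene, so transcripts of a gene were not told apart.

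Promoter windows from RefSeq (GRCm38.p6), from 250 bases before to 50 bases after an annotated start, were found for 3 of the 4 genes. They are shown because these 3 are the coding genes of the set, although their courses over age differed. Capitals mark matches on either strand to an E-box (CANNTG, the letters bound by myogenic factors such as MyoD), MCAT (CATTCC), the estrogen-related receptor (ERR) motif (AAGGTCA) or the MEF2 motif. No matches overlapped. The windows are chr6:138079867-138080166 on the minus strand, chr11:110398852-110399151 on the plus strand, which is the first of 3 *Map2k6* windows, and chr17:7169865-7170164 on the plus strand.
Slc15a5: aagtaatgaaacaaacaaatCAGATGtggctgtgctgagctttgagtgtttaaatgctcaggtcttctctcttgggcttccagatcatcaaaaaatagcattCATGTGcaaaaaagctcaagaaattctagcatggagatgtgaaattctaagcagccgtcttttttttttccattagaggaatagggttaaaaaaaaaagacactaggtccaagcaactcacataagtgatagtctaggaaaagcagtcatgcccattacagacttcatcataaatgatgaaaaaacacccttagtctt
Map2k6: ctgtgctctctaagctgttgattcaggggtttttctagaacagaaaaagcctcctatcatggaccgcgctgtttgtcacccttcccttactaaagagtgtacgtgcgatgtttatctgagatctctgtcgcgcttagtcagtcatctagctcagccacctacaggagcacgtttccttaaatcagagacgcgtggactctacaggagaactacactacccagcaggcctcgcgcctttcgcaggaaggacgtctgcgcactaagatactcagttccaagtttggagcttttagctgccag
Rps6ka2: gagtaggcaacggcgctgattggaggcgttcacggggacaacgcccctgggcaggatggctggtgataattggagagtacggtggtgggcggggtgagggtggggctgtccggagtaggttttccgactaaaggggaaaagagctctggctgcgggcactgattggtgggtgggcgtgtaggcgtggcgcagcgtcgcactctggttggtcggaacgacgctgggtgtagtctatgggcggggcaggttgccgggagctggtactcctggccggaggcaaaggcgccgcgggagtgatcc

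The *Slc15a5* window held 2 E-boxes, and the other 2 windows printed held no match to any of the 4 motifs. The remaining *Map2k6* windows held 1 E-box each. Of 32851 windows of this length over all genes, 72.3% held an E-box, 14.7% an MCAT match, 4.72% an ERR motif and 1.86% a MEF2 match. The *Slc15a5* window was low in G and C, at 36.7%, and the *Rps6ka2* window high, at 64.7%, against a median of 52.7% over all windows. A match describes letters in a window and not a bound site, and which *Map2k6* start was used cannot be seen from counts per gene. *B230312C02Rik* is named only.

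Total counts were 49321035 to 85631408 per library. Levels are CPM, counts scaled for library size with trimmed means (TMM) on 1 scale over the 32 libraries, given as mean ± SD with n=4. *Mtm1* itself was lower in KO at every age, with 2.64 to 4.51 CPM against 18.9 to 24.9 CPM in WT from P14 on, and 2.32 to 3.91 against 5.26 to 6.02 CPM at P1. All 10 muscle fibre markers were detected in every group. Keratinocyte markers summed to 1587 to 6070 CPM in the P1 libraries and to 2.49 to 7.06 CPM in the later ones. Muscle fibre markers summed to 26520 to 33720 CPM in WT and 16860 to 33060 CPM in KO at P1. At P14 they summed to 71500 to 93650 CPM in WT and 59210 to 85580 CPM in KO. The part of these differences in the changes from P1 to P14 was not tested. A gene was called when its adjusted p from edgeR's quasi-likelihood test was under 0.01 with a change over 1.5-fold.

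**Figure D1:**
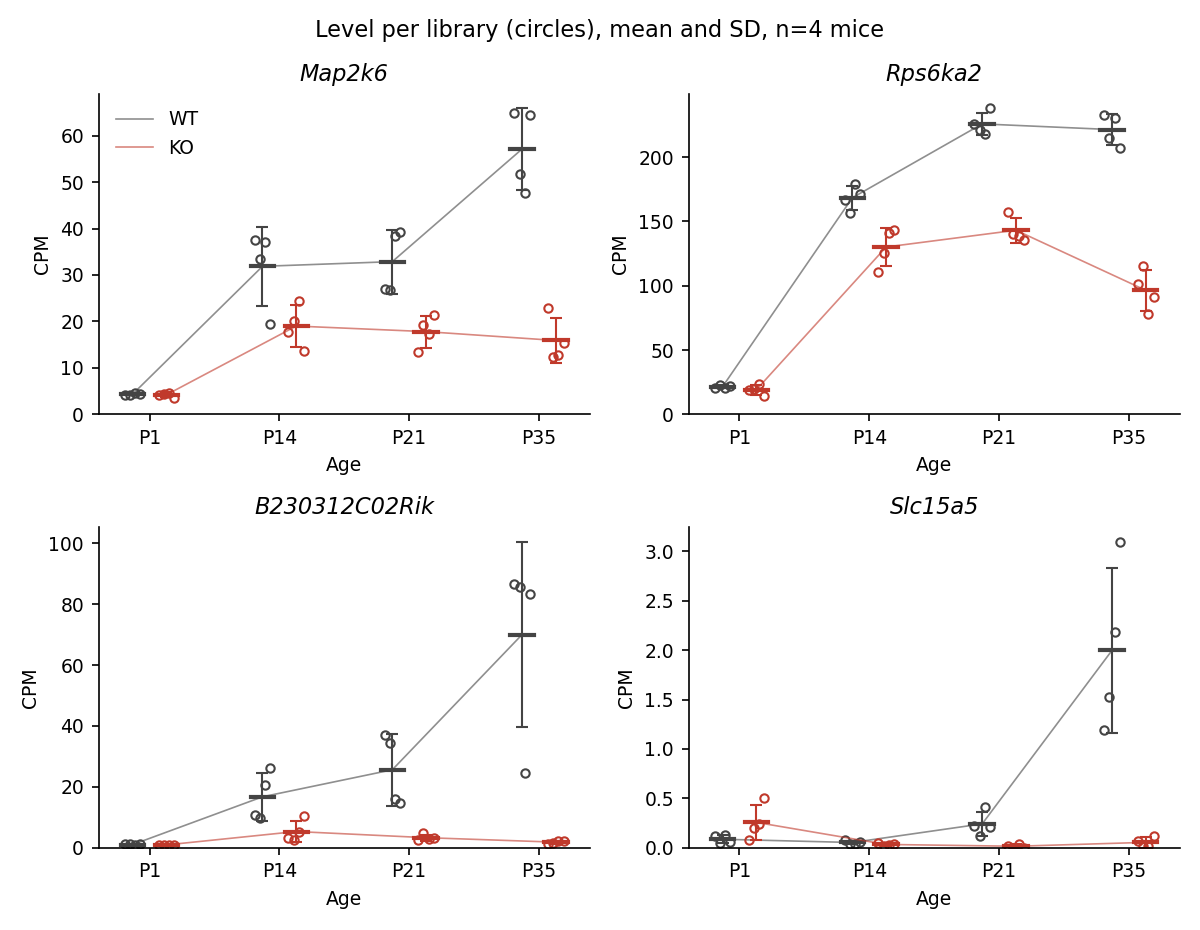
Level in CPM (linear axes from 0, which differ between panels) of each gene in each library at P1, P14, P21 and P35, with WT in grey and KO in red. Circles are libraries of 1 mouse each, thick bars are means and thin bars are SD (n=4). At P35 every KO library sits below every WT library in all 4 panels, and 1 WT library of *B230312C02Rik* lies at 24.6 CPM, far below the other 3.

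*Map2k6* was low at birth in both genotypes. At P1 its CPM in WT was 4.06, 4.26, 4.62 and 4.47, and in KO 4.21, 4.46, 4.68 and 3.48. The groups overlapped, and the log2 fold change of KO over WT was -0.04 (SE 0.108, edgeR adjusted p = 0.916). Only 0.0442% of the 18100 genes tested at P1 were called in either direction. By P14 *Map2k6* had risen 7.27-fold in WT and 4.43-fold in KO from P1 (edgeR adjusted p = 9.42e-07 and 4.9e-06). Over that interval 24.7% of genes in WT and 23.5% in KO were called higher.

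At P14 the CPM of *Map2k6* was 37.5, 33.5, 37.2 and 19.4 in WT. In KO it was 17.8, 20.03, 24.5 and 13.7. The lowest WT library, replicate 4, lay within the KO range, so the groups overlapped. The log2 fold change was -0.75 (SE 0.231) and did not pass in the comparison as designed (edgeR adjusted p = 0.572). In that comparison 0.00636% of 15728 genes were called lower in KO. Same-numbered libraries deviated together at P14, although the labels do not say whether those mice were paired. Blocking on that number put the log2 fold change at -0.74, with edgeR adjusted p = 0.0011, a call, where 0.197% of genes were called lower.

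From P14 to P21 *Map2k6* did not pass the test in either genotype, with log2 changes of 0.04 (SE 0.217) in WT and -0.11 (SE 0.189) in KO (edgeR adjusted p = 0.916 and 0.694). At P21 its CPM in WT was 27.1, 26.8, 38.5 and 39.2, and in KO 13.3, 19.2, 17.2 and 21.5. Every KO library lay below every WT library, as for 11.0% of the genes tested at P21. KO *Map2k6* was 1.83-fold lower (log2 fold change -0.87, SE 0.182, edgeR adjusted p = 0.00984), where 1.50% of 15179 genes were called lower and 3.18% higher. This call lay at the threshold: it was lost when any 1 of the 8 libraries was left out, the log2 fold change then lying between -0.98 and -0.75 and the edgeR adjusted p between 0.012 and 0.025.

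At P35, the age that chose it, *Map2k6* stood at 64.8, 51.7, 47.6 and 64.4 CPM in WT and at 22.9, 12.5, 12.9 and 15.4 CPM in KO. The groups did not overlap. WT *Map2k6* was 1.74 times its P21 mean, whereas the KO mean was 89.3% of its P21 mean and the KO libraries of those ages overlapped. The KO mean of 15.9 ± 4.86 CPM was 27.8% of the WT mean of 57.1 ± 8.82 CPM. In WT the order of means was P35, P21, P14, P1, in which P21 and P14 overlapped. In KO the means of P14, P21 and P35 were 19.0, 17.8 and 15.9 CPM, all overlapping, and all were above P1.

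*Rps6ka2* had the highest counts of the set. The P1 libraries held 20.5 to 22.7 CPM in WT and 13.9 to 23.8 CPM in KO and overlapped, with a log2 fold change of -0.16 (SE 0.138, edgeR adjusted p = 0.689). *Rps6ka2* then rose 7.77-fold in WT and 6.69-fold in KO by P14 (edgeR adjusted p = 7.47e-09 and 1.2e-06). From P1 to P14, 24.7% of genes in WT and 23.5% in KO were called higher.

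At P14 the CPM of *Rps6ka2* was 166, 157, 179 and 171 in WT, and 111, 125, 141 and 143 in KO. The groups did not overlap, and 1.56% of genes at that age had all KO libraries below all WT libraries. The log2 fold change was -0.37 (SE 0.087) and did not pass (edgeR adjusted p = 0.277). With the replicate block it was -0.38 with an adjusted p of 0.00442 (edgeR), still within 1.5-fold and so not a call.

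At P21 *Rps6ka2* stood at 226, 221, 218 and 238 CPM in WT and at 157, 140, 139 and 136 CPM in KO. The gap between the lowest WT and the highest KO library was wide against the spread within each group. At P21, 11.0% of genes had all KO libraries below all WT libraries. KO was 1.56-fold lower (log2 fold change -0.65, SE 0.0627, edgeR adjusted p = 0.000351) and remained called with any 1 library left out. Scaling by library totals brought the log2 fold change to -0.46, within 1.5-fold (edgeR adjusted p = 0.000886). From P14 to P21 the log2 change was 0.41 in WT (SE 0.0666, edgeR adjusted p = 0.00323), under 1.5-fold, and 0.12 in KO (SE 0.0891, adjusted p = 0.328). Genes called in either direction over that interval made up 5.53% in WT and 7.04% in KO.

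At P35 *Rps6ka2* stood at 233, 215, 231 and 207 CPM in WT and at 101, 115, 77.7 and 91.5 CPM in KO. The WT mean was 98.0% of that at P21, with overlapping libraries. The KO mean was 67.4% of that at P21, and no KO library of P35 reached the lowest of P21. The KO mean of 96.4 ± 15.8 CPM was 43.5% of the WT mean of 221 ± 12.2 CPM. The WT means ran P21, P35, P14, P1, with overlap between P21 and P35, and the KO means ran P21, P14, P35, P1, with overlap between P21 and P14 and between P14 and P35. By the means, the gap was wider at P35 than at P21 with a lower KO level for *Rps6ka2* and a higher WT level for *Map2k6*. This was not tested, as the P35 values chose the genes.

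*B230312C02Rik* was near 1 CPM at birth in every library, with 0.819 to 1.17 CPM in WT and 0.847 to 1.06 CPM in KO (log2 fold change -0.14, SE 0.163, edgeR adjusted p = 0.771). It rose 15.6-fold in WT and 5.46-fold in KO by P14 (edgeR adjusted p = 4.39e-06 and 0.000335). In WT this was the largest fold rise of the 3 genes tested over this interval, and in KO that of *Rps6ka2* was larger.

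At P14 the CPM of *B230312C02Rik* was 10.8, 9.63, 20.5 and 26.1 in WT, and 3.34, 2.61, 5.15 and 10.3 in KO. The lowest WT library was replicate 2 and the highest KO library was replicate 4, and these overlapped. In both genotypes replicates 3 and 4 were the higher pair. The log2 fold change was -1.66 (SE 0.474) and did not pass in the comparison as designed (edgeR adjusted p = 0.490). With the replicate block it was -1.71 (SE 0.099) with an adjusted p of 2.66e-05 (edgeR), a call, where 0.197% of genes were called lower. The labels do not say whether same-numbered mice were paired.

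At P21 the CPM of *B230312C02Rik* was 37.1, 34.5, 16.1 and 14.8 in WT, and 2.63, 4.79, 2.85 and 3.07 in KO. WT replicates 1 and 2 were high and replicates 3 and 4 low, and all 4 lay above the highest KO library. Such a separation was seen for 11.0% of genes at P21. KO was 7.57-fold lower (log2 fold change -2.92, SE 0.344, edgeR adjusted p = 0.000872), and this call held with any 1 library left out. From P14 to P21 the log2 change was 0.60 (SE 0.397) in WT and -0.69 (SE 0.4) in KO, neither past the test (edgeR adjusted p = 0.289 and 0.223).

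At P35 *B230312C02Rik* stood at 86.6, 85.6, 24.6 and 83.3 CPM in WT. The KO libraries held 1.42, 1.43, 2.24 and 2.35 CPM. WT replicate 3 was far below the other WT libraries and still above every KO library. The KO mean of 1.86 ± 0.504 CPM was 2.66% of the WT mean of 70.0 ± 30.3 CPM, and the log2 fold change was -5.21, or -5.50 without WT replicate 3. WT was 2.73 times its P21 mean with overlapping libraries, and KO was 55.8% of its P21 mean without overlap. The KO mean at P35 was still 1.94 times that at P1. In WT the means ran P35, P21, P14, P1, and P21 overlapped with both P35 and P14. In KO they ran P14, P21, P35, P1, and of these neighbours only P14 and P21 overlapped.

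*Slc15a5* was the rarest of the set, and its RNA was near the limit of detection until P21. At P1 its counts were 11, 4, 13 and 6 in WT and 11, 22, 21 and 56 in KO. KO was the higher group, with overlap and with the highest value in KO replicate 4, and the log2 fold change of 1.56 (SE 0.563) did not pass (edgeR adjusted p = 0.359). Keratinocyte markers, whose part in this was not tested, summed to 3390 CPM in KO replicate 4 and to 6070 CPM in WT replicate 3, which held 13 counts of *Slc15a5*.

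At P14 the counts of *Slc15a5* were 5, 2, 2 and 3 in WT and 3, 1, 2 and 2 in KO, too few for the filter. The groups overlapped (exact permutation test over 70 assignments, two-sided p = 0.2). In the fit without a filter, KO *Slc15a5* at P14 was below KO at P1 (log2 change -2.91, SE 0.621, edgeR adjusted p = 0.00182), and in WT the log2 change was -0.69 (SE 0.515, adjusted p = 0.291).

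At P21 the counts of *Slc15a5* were 9, 5, 17 and 9 in WT and 1, 0, 2 and 0 in KO. No KO library reached the lowest WT library, a separation seen for 11.0% of the genes that passed the filter at P21. After allowing for library size, the 40 WT and 3 KO counts gave WT over KO as 15.1, with an exact 95% interval of 4.79 to 76.0 that covers counting error only. The exact permutation p was 0.0286 (two-sided), the smallest that 4 against 4 libraries allow. The gene had too few counts for the comparison as designed. Without the filter its log2 fold change was -3.69 (SE 0.721, edgeR adjusted p = 0.00546).

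At P35 the counts of *Slc15a5* were 49, 65, 92 and 134 in WT and 4, 1, 1 and 7 in KO. In CPM, WT stood at 1.19, 1.52, 2.18 and 3.09 and KO at 0.0668, 0.0148, 0.0153 and 0.125. The WT mean of 1.997 ± 0.837 CPM was 8.24 times that at P21, and the KO mean of 0.0554 ± 0.0523 CPM was 2.77% of WT. The log2 fold change was -5.15, or -5.88 without KO replicate 4, the highest KO library. In WT the means ran P35, P21, P1, P14, with overlap between P21 and P1 and between P1 and P14. In KO they ran P1, P35, P14, P21, and each neighbouring pair overlapped. WT from P14 to P21 was 4.49 times higher by the means, without overlap of libraries, but did not pass in the fit without a filter (edgeR adjusted p = 0.0151).

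**Figure D2:**
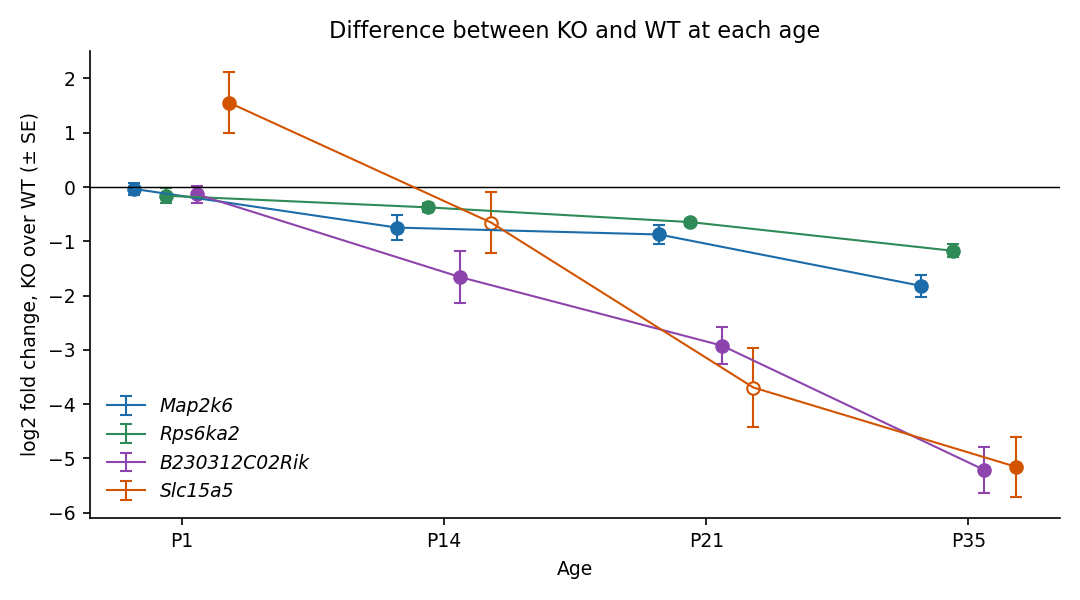
Log2 fold change of KO over WT (± SE of the edgeR fit) for the 4 genes at P1, P14, P21 and P35, with n=4 per genotype and age. Open circles are *Slc15a5* values from the fit without a low count filter. The 3 other genes lie near 0 at P1 and below it from P14 on, and *Slc15a5* lies at 1.56 at P1 and at -3.69 at P21. The P35 points chose the genes and are a description.

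Ordered by log2 fold change at P35, *B230312C02Rik* was 2nd lowest and *Slc15a5* 3rd lowest of 15595 genes tested, at -5.21 (SE 0.426) and -5.15 (SE 0.55). *Map2k6* was at rank 108 with -1.82 (SE 0.201), and *Rps6ka2* at rank 338 with -1.17 (SE 0.119). At P35, 7.52% of genes were called lower and 8.49% higher, and 20.4% had every KO library below every WT library, as all 4 genes had. Per kilobase of exon, the WT levels at P35 were 41.1 CPM for *B230312C02Rik*, 22.2 for *Rps6ka2*, 16.6 for *Map2k6* and 0.647 for *Slc15a5*. In KO the order of these levels per kilobase was *Rps6ka2* at 9.66, *Map2k6* at 4.62, *B230312C02Rik* at 1.09 and *Slc15a5* at 0.0179 CPM. By group means, *B230312C02Rik* was thus the first of the set per length in WT and the third in KO. The lengths cover the exons of all annotated transcripts of a gene. WT replicate 3 of *B230312C02Rik* stood at 24.6 CPM, far below the WT mean of 70.0 CPM.

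Whether the difference between genotypes itself changed with age was tested as an interaction over all 32 libraries, so that the filter and the estimate of spread also drew on the P35 libraries. From P1 to P14 the change in log2 fold change was -2.197 for *Slc15a5*, -1.501 for *B230312C02Rik*, -0.69 for *Map2k6* and -0.20 for *Rps6ka2*. From P14 to P21 these changes were -3.10, -1.29, -0.14 and -0.29. None of the 8 passed, with edgeR adjusted p of 0.694 to 0.909 for the first interval and 0.258 to 0.907 for the second. Over all 18583 genes, 0.0161% and 0.425% passed. From P21 to P35 the changes, without a test, were -1.43 for *Slc15a5*, -2.30 for *B230312C02Rik*, -0.96 for *Map2k6* and -0.54 for *Rps6ka2*.

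Over the 32 libraries, the log2 CPM of *Map2k6* and *Rps6ka2* had a Pearson r of 0.944. *B230312C02Rik* had r = 0.864 with *Map2k6* and 0.808 with *Rps6ka2*, and *Slc15a5* had r = 0.524 with *B230312C02Rik*, 0.320 with *Map2k6* and 0.117 with *Rps6ka2*. These points share age and genotype, so r is given as a description. *Slc15a5* did not share the rise from P1 to P14 seen in the other genes of the set. Among 13314 genes, those among the 3 most like *Rps6ka2* included *Kcna7* (r = 0.994) and *March6* (0.993), and those among the 3 most like *Map2k6* included *Cmss1* (0.964) and *Mettl4* (0.963). The most like *B230312C02Rik* were *Pgm2l1* (0.951), *Ppp1cc* (0.945) and *Golph3* (0.933), and the most like *Slc15a5* were *Slc4a4* (0.854), *Lgr4* (0.820) and *Aldh1a7* (0.820). *Kcna7*, a voltage-gated potassium channel gene, had a log2 fold change at P35 of -1.54, and *Aldh1a7*, an aldehyde dehydrogenase gene, of -3.27. The other alike genes named here ran from -1.43 (*Pgm2l1*) to -0.55 (*Mettl4*), and *Mettl4* and *Ppp1cc* (-0.58) were not called. These genes were picked over libraries that include those of P35, so their P35 values are a description.

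The nearest genes tested on each side of the 4 genes were not called at P21 or P35. For *Slc15a5* these were *Dera* and *Mgst1*, with log2 fold changes of -0.28 and 0.22 at P35. For *B230312C02Rik* they were *Cables2* at -0.44 and *Mrgbp* at 0.39. For *Map2k6* they were *Abca5* at 0.37 and *Kcnj2* at 0.52, and for *Rps6ka2* *Rnaset2b* at -0.02 and *Fndc1* at 0.08. These neighbours lay 60399 to 540641 bases away.

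Among the kinases that share the MAP2K role with *Map2k6*, 0 of 6 were called at P21 or P35. Over all genes, 7.52% were called lower and 8.49% higher at P35. *Map2k3*, which encodes the other main p38 activator, stood at 261 ± 50.4 CPM in WT and 242 ± 35.5 CPM in KO at P35 (log2 fold change -0.09, SE 0.148, edgeR adjusted p = 0.659). *Map2k4*, which acts on JNK and p38, had -0.58 (SE 0.0887, edgeR adjusted p = 0.000937), just within 1.5-fold. *Map2k7*, a JNK activator, had -0.41 (edgeR adjusted p = 0.000905), also within 1.5-fold. The ERK activators *Map2k1* and *Map2k2* had 0.02 and -0.22, and *Map2k5*, which activates ERK5, had -0.18 (edgeR adjusted p of 0.838, 0.143 and 0.0515).

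Of 39 other genes of the p38 cascade tested, 1 was called lower and 2 higher at P21, and 7 lower and 2 higher at P35. Over all genes the shares were 1.50% lower and 3.18% higher at P21, and 7.52% lower and 8.49% higher at P35. The median log2 fold change of the list at P35 was -0.25 against 0.04 over all genes. With scaling by library totals the list median was 0.16 and the median of all genes 0.44, with 3 called lower and 8 higher, where 2.09% of all genes were called lower and 27.9% higher. Among the p38 kinases, *Mapk14* (p38 alpha) was called lower, with 165 ± 18.2 CPM in WT and 97.0 ± 11.3 CPM in KO (log2 fold change -0.74, SE 0.11, edgeR adjusted p = 0.000818). *Mapk12*, the p38 isoform enriched in muscle, had -0.32 and *Mapk11* 0.13 (edgeR adjusted p = 0.028 and 0.691), and *Mapk13* had too few counts.

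Upstream of the MAP2Ks, *Map3k3* had -0.74 at P35 (edgeR adjusted p = 0.00123). It was the only 1 of 11 kinases of this step called, where 7.52% of all genes were called lower. *Tab2*, an adaptor of the kinase TAK1, had -0.95 (SE 0.0962, edgeR adjusted p = 0.000153). *Gadd45b*, a stress-induced activator of the p38 pathway, had -1.49 (SE 0.199, edgeR adjusted p = 0.000491), while its relative *Gadd45a* was higher in KO at 1.57 (SE 0.334, adjusted p = 0.00496). *Gadd45a* was also higher at P21, at 1.23 (edgeR adjusted p = 0.00082).

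Below p38, *Mknk1*, a kinase of the translation factor eIF4E, had -0.68 at P35 (SE 0.0741, edgeR adjusted p = 0.000202). *Ppargc1a*, which encodes the mitochondrial coactivator PGC-1alpha, had -0.73 at P21 and -1.15 at P35 (edgeR adjusted p = 0.000815 and 8.51e-05). *Mef2c*, a muscle transcription factor gene, was higher by 0.615 at P21 and by 0.612 at P35 on the log2 scale (edgeR adjusted p = 0.000872 and 0.00191). At P35 the number called higher was 0 or 1 in place of 2 when any WT library or KO replicate 1, 3 or 4 was left out. At P21 the number called lower was 2 without WT replicate 3, and the number called higher was 1 without KO replicate 2.

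Of 27 genes of the ERK cascade tested, which holds *Rps6ka2* as a downstream kinase but does not count it here, 0 were called at P21 and 2 lower and 0 higher at P35. Over all genes 1.50% were called lower and 3.18% higher at P21, and 7.52% lower and 8.49% higher at P35. The list median at P35 was -0.07 against 0.04 over all genes. Those called were *Sos2*, a Ras exchange factor gene, at -0.84 and *Ptpn11*, which encodes the phosphatase SHP2, at -0.73 (edgeR adjusted p = 0.000112 and 0.000354). With scaling by library totals none were lower and 7 were higher, with a list median of 0.34, again beside 27.9% of all genes called higher. Without KO replicate 2, 1 gene was called higher.

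Among the relatives of *Rps6ka2*, only *Rps6ka5* (MSK1, activated by both ERK and p38) was called, and only at P35, where 7.52% of all genes were called lower. It stood at 32.7 ± 7.64 CPM in WT and 12.04 ± 3.22 CPM in KO (log2 fold change -1.42, SE 0.22, edgeR adjusted p = 0.00104). *Rps6ka3* (RSK2) was at 113 ± 10.2 and 111 ± 8.13 CPM, with a log2 fold change of 0.00 (SE 0.0879). *Rps6ka1* had -0.38, *Rps6ka4* 0.26 and *Rps6ka6* 0.46 (edgeR adjusted p = 0.229, 0.0467 and 0.163). In the SLC15 family, *Slc15a2*, *Slc15a3* and *Slc15a4*, which encode peptide or peptide and histidine transporters, had 1.34, 0.40 and 0.14 at P35, with 0 of 3 called (edgeR adjusted p = 0.205, 0.243 and 0.544), and *Slc15a1* had too few counts.

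**Figure D3:**
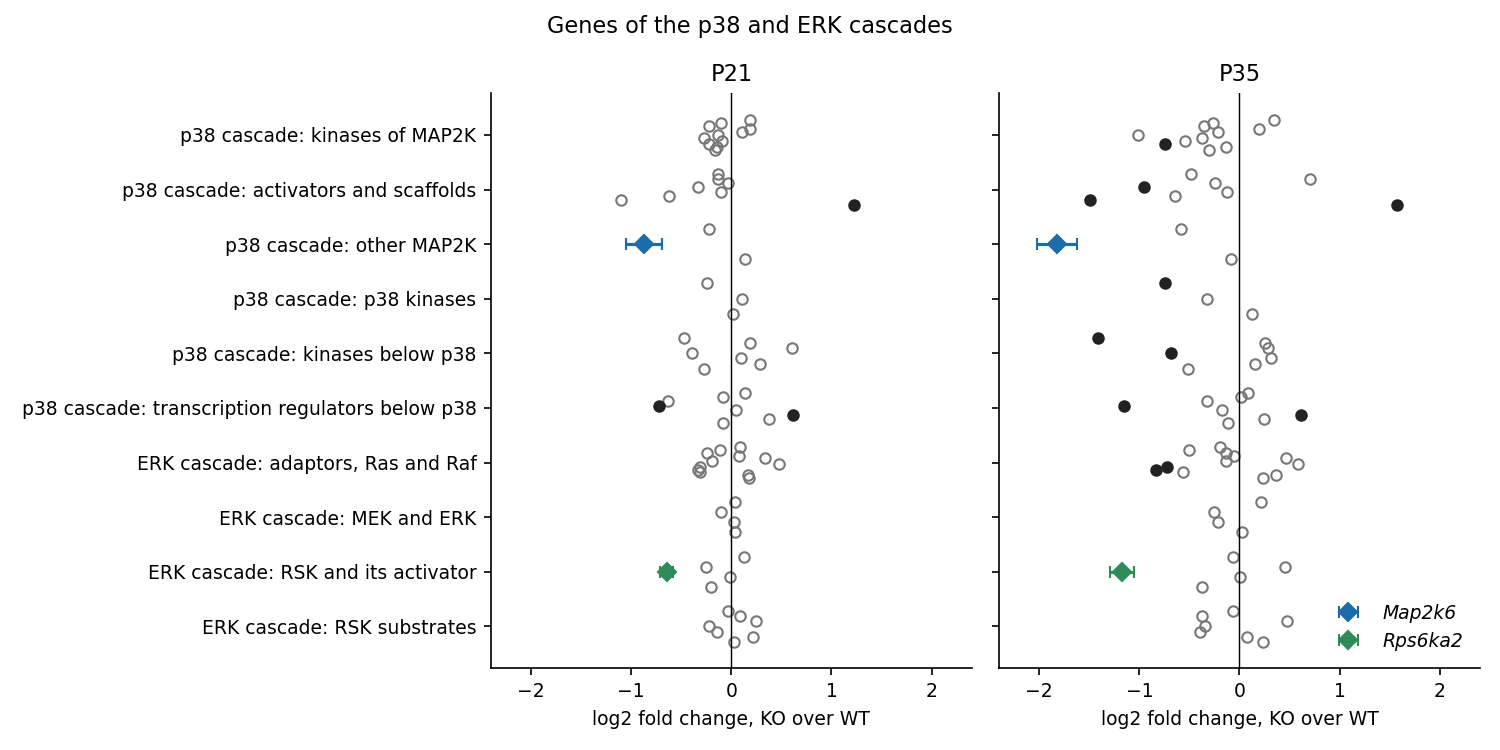
Log2 fold change of KO over WT at P21 (left) and P35 (right) for the tested genes of the p38 and ERK cascades, by role (n=4 per genotype). Filled circles were called by edgeR (adjusted p under 0.01 and over 1.5-fold) and open circles were not. Diamonds with SE bars are *Map2k6*, in the row of the other MAP2K, and *Rps6ka2*, in the row of RSK and its activator, which lie at -1.82 and -1.17 at P35. *Gadd45a* is the filled circle farthest to the right in both panels.

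Some marker levels also differed between genotypes, at P21 as well as P35. Over all genes tested at P21, 1.50% were called lower and 3.18% higher. At P21 muscle fibre markers summed to 74910 to 84310 CPM in KO and 89320 to 114800 CPM in WT, with 1 of 10 called higher and 0 lower. Fast fibre markers at P21 summed to 131300 to 144100 CPM in KO and 140600 to 185400 CPM in WT, which overlapped, with 1 of 10 called lower. At that age 2 of 5 satellite cell markers were called lower and 2 of 7 macrophage markers higher. Mitochondrially encoded RNA made up 8.21 to 8.78% of counts in KO and 9.75 to 11.99% in WT at P21.

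At P35, where 7.52% of all genes were called lower and 8.49% higher, the marker counts were as follows. Slow fibre markers summed to 1312 to 2802 CPM in KO and 241 to 492 CPM in WT, with 7 of 10 called higher. Fast fibre markers summed to 78530 to 109100 CPM in KO and 119100 to 181500 CPM in WT, with 1 of 10 called lower. Muscle fibre markers summed to 49610 to 59480 CPM in KO and 74060 to 93220 CPM in WT, with 2 of 10 called lower and 1 higher. Macrophage markers summed to 76.7 to 109.5 CPM in KO and 65.1 to 81.2 CPM in WT, with 4 of 7 called higher. Of 5 adipocyte markers, 3 were called higher, while their sum, mostly *Plin4*, was 78.2 to 259 CPM in KO and 146 to 328 CPM in WT. At this age 2 of 7 endothelial, 2 of 6 mural and 2 of 5 satellite cell markers were called lower. Mitochondrially encoded RNA made up 10.3 to 10.5% of counts in KO and 12.4 to 17.9% in WT. The part of these differences in the levels of the 4 genes was not tested.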

How the data were processed

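RNA was extracted from 32 muscles (RNeasy), poly(A) RNA was isolated and NEBNext Ultra II Directional libraries were sequenced in pairs. The processing notes name STAR 2.6.1, RSEM 1.2.22, DESeq2 and GRCm38, and HTSeq is the counter in the methods. The authors deposited expected counts per gene and library, without scaling or pooling. Of these values, 4.26% were not whole. The annotation release and the use of strand in counting are not given in the sources used here. Of 54838 genes, 54723 were given symbols from GENCODE M21. The genes, lists and tests were chosen with earlier results of these data known.

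Expected counts were rounded. The analysis, tested on simulated data first, used edgeR 4.0.16 under R 4.3.3. Each pair of groups was filtered with filterByExpr, scaled by TMM and compared by the two-sided quasi-likelihood test (glmQLFit, glmQLFTest), and p was adjusted by Benjamini-Hochberg across the genes tested. Interactions used all 32 libraries. Log2 CPM for correlations had a prior count of 2. Totals of 49321035 to 85631408 counts per library set the precision, and intervals cover counting error only. Replicates are different mice, and no 2 agreed within sampling noise. Replicate numbers come from the labels. Deviations of same-numbered libraries correlated at P14 in all 4 pairs (r of 0.190 to 0.588), so the block is reported there, and not at other ages.

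Genes named are the 4 genes, their 3 most alike genes, the nearest tested neighbours, whole MAP2K, RSK and MSK and SLC15 families, p38 kinases, and up to 3 called genes per other list. Some of the most alike genes are not reported here. Alternatives were DESeq2 1.42.0, RLE size factors, library totals, no filter, at least 10 counts in every library, the block, 1 fit of all libraries and leaving out each library. The exact permutation test and counting interval for *Slc15a5*, and the alternatives for list counts, were added after seeing the data. Figures were drawn with matplotlib 3.10.9 in python 3.11.15, and tables were handled in pandas 2.3.3.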

Additional observations from a re-analysis of the deposited data

Results flagged for a closer look

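Of 32 sets of a gene and a group looked at, 1 held a library that stood apart by Dixon's criterion, and chance gives about 1 in 20. It was *B230312C02Rik* in WT at P35, where replicate 3 stood at 24.6 CPM and the other 3 WT libraries at 83.3 to 86.6 CPM. The same library was at 47.6 CPM for *Map2k6*, the lowest of its group, at 231 CPM for *Rps6ka2* and at 2.18 CPM for *Slc15a5*, both within the range of the others.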

How the results depend on the processing

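No comparison of the 4 genes that passed the test reversed its direction under an alternative. Blocking on the replicate number at P14 brought *B230312C02Rik* (-1.71) and *Map2k6* (-0.74) past the threshold. The block raised the genes called there from 5 to 98. At the other ages same-numbered libraries correlated less, with r of at most 0.187, and the block changed no call of the 4 genes. The labels do not say whether same-numbered mice were paired at any age. Scaling by library totals put the median gene at a log2 fold change of 0.20 at P21 and 0.44 at P35, and the genes called from 709 to 1157 and from 2496 to 4676. Under it *Map2k6* (-0.69) and *Rps6ka2* (-0.46) were no longer called at P21, and their P35 values were -1.42 and -0.77. From P1 to P14 in WT, library totals put the median gene at -0.85 and the genes called higher from 4304 to 1598. The WT rises were then 2.11 for *Map2k6*, 2.19 for *Rps6ka2* and 3.15 for *B230312C02Rik*. With TMM these log2 values were 2.86, 2.96 and 3.96, and all 3 rises were called either way. At least 10 counts in every library gave *Map2k6* -0.87 at P21, not called. *Map2k6* stayed called at P21 with DESeq2, RLE size factors, no filter, the block and 1 fit of all libraries. Leaving out 1 library gave -0.98 to -0.75 for *Map2k6* at P21 and 417 to 626 genes called at that age. DESeq2 called 93 genes at P1 and 53 at P14, against 8 and 5.

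For the p38 cascade at P21, genes called lower numbered 3 with DESeq2 or with all libraries in 1 fit, 0 with library totals, and 1 to 2 without 1 library, and those called higher 1 to 3 without 1 library. At P35 library totals gave 3 lower and 8 higher, and leaving out 1 library 0 to 2 higher. For the ERK cascade, library totals gave 1 higher at P21, and 0 lower and 7 higher at P35, and leaving out 1 library 0 to 1 higher. *Slc15a5* had too few counts at P14 and P21 for the leave-one-out fits.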
